A study of Mus musculus with 23 samples.

Results

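CD44-positive and CD44-negative epithelial cells of the newborn mouse small intestine were compared, using the 6 libraries of postnatal day 0 (P0) out of 23 in the series. All 3 libraries labelled P0 crypt and all 3 labelled P0 villus were taken, and no library was left out. The mice were of the CD1 stock, which is outbred, with no transgene or treatment named. Epithelium was loosened from the medial small intestine with EDTA and Epcam-positive cells were sorted, those with surface CD44 being called crypt and those without it villus. The other 17 libraries hold the same populations at P3, P6 and P10 and enter here only through the shared estimate of the spread and a comparison with the 6 libraries of P10. The labels do not say whether a replicate is an animal, a litter or a pool, and the p-values therefore reflect only how far these libraries scatter, which may be technical.

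At birth the mouse small intestine has villi but no crypts. Dividing cells lie between the villi in intervillus regions, which sink into the wall during the first weeks of life and become crypts, and Paneth cells mature after that. Wnt signals keep the dividing cells cycling, with Lgr5 as receptor of R-spondins on stem cells, and Notch signals hold them back from the secretory fates. Cells that leave the cycle become enterocytes, which take up milk fat and protein in the suckling animal, or goblet and enteroendocrine cells. CD44 is a hyaluronan receptor and a Wnt target of the dividing zone.

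Library totals at P0 were 24437124 to 32869510 counts. In each library 19939 to 21595 genes had a count. Mitochondrially encoded protein genes held 3.31%, 5.0% and 3.17% of the counts in crypt 1, 2 and 3, and 4.66%, 8.72% and 10.5% in villus 1, 2 and 3. Levels are given in CPM, the count as a share of the library total on the usual scale, in the order of replicates 1, 2 and 3. Totals were adjusted by TMM for single genes (factors 0.962 to 1.12 at P0) and not for sums over a list. Sums and values of single genes are therefore on slightly unlike scales. A difference is the log2 value of crypt minus villus with its standard error after ±, and adjusted p-values are from edgeR's quasi-likelihood test with Benjamini-Hochberg adjustment over 16535 genes. A gene with adjusted p under 0.05 is said to be called. A call is termed stable where it also held, in the same direction, with each of the 6 libraries left out in turn and without both replicate 1 libraries, and where the CPM of crypt and villus did not overlap.

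Cd44, the gene of the sorted protein, had 42.0, 32.4 and 53.9 CPM in crypt and 10.6, 2.60 and 6.44 in villus. The groups did not overlap, and as the sort used its product the difference (2.69 ± 0.38) only checks the labels. Epcam, the other sort gene, had 1683, 1513 and 1463 CPM in crypt and 1225, 875 and 877 in villus, so it was high in all 6 libraries and higher in crypt (0.65 ± 0.14, adjusted p = 0.00267).

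At birth 4427 genes (26.8% of those tested) differed between the populations, 2731 (16.5%) higher in crypt and 1696 (10.3%) higher in villus. At least 2-fold differences were called for 1140 genes (6.89%) in crypt and 891 (5.39%) in villus. Stable calls numbered 1389 (8.4%) in crypt and 510 (3.08%) in villus. The CPM of the groups did not overlap for 2945 genes (17.8%) higher in crypt and 2103 (12.7%) higher in villus. The median difference of all genes was 0.02. Of all calls, 61.7% were higher in crypt, against 80.8% (4053 and 965 genes) with scaling by library totals alone, where the median of all genes was 0.21. Fitted on the P0 libraries alone, 507 genes (3.07%) were higher in crypt and 201 (1.22%) in villus. With 1 library left out of the fit of all groups, the counts in crypt and villus were 1713 and 722 without crypt 3, 1809 and 1026 without villus 2, and 1764 and 1011 without villus 3.

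**Figure D1:**
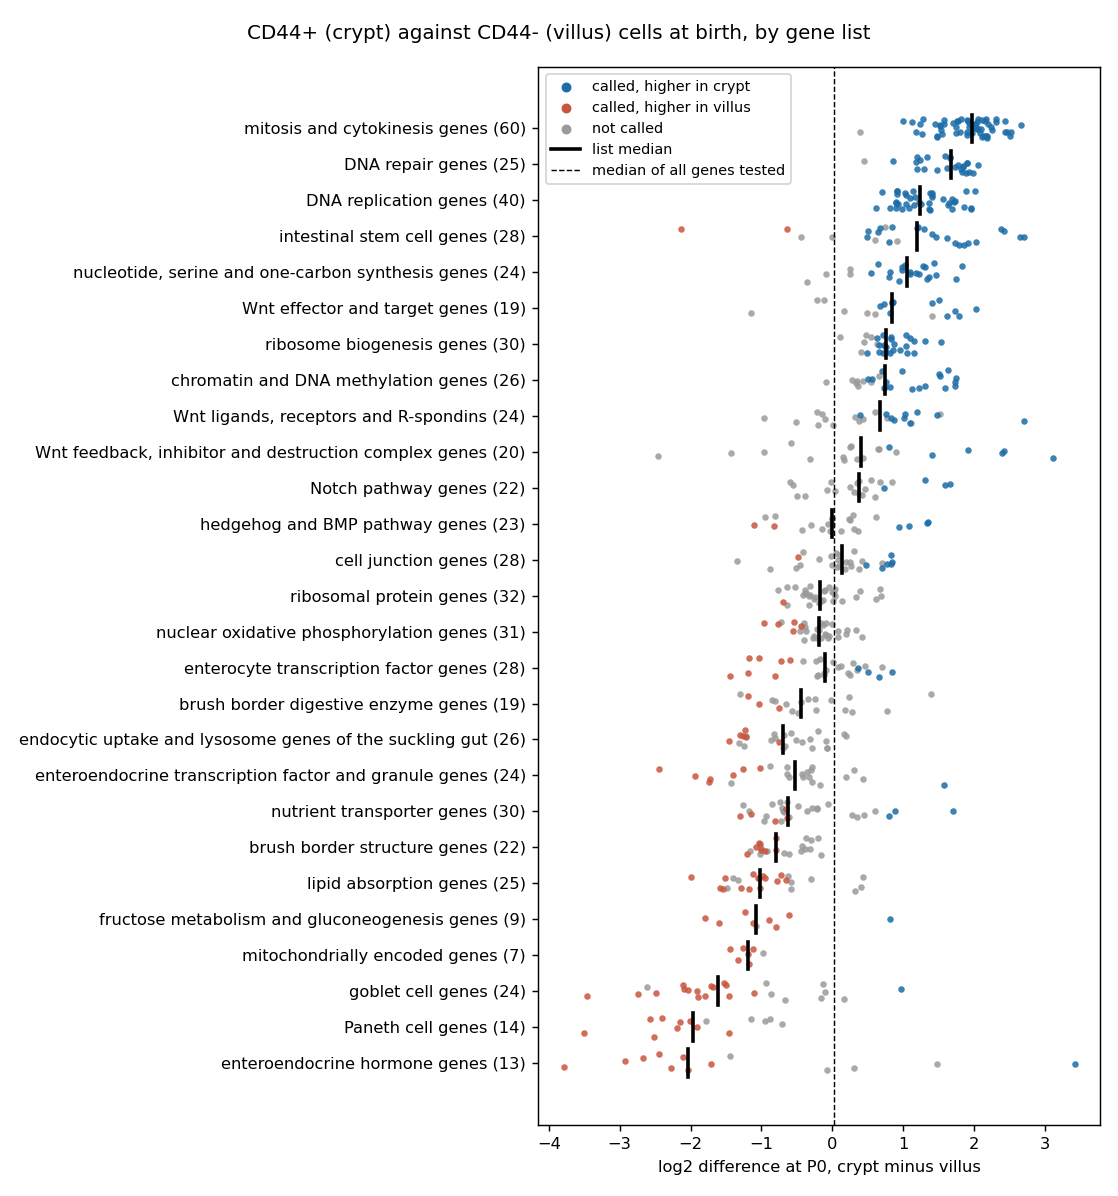
Log2 differences at P0 (crypt minus villus, horizontal axis) of the tested members of 27 gene lists, with the number tested in parentheses. Each point is a gene, blue where called higher in crypt, red where called higher in villus and grey where not called, the black bar is the list median and the dashed line the median of all genes tested (0.02). Lists run from mitosis (median 1.98) at the top to enteroendocrine hormones (-2.03) at the bottom.

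Genes of cell division were higher in the CD44-positive cells almost without exception. Of 60 mitosis and cytokinesis genes, 59 were higher in crypt, all 59 of them stable, with a list median of 1.98 beside 0.02 for all genes. Anln, which codes for the cytokinesis scaffold anillin, had 56.8, 62.5 and 82.3 CPM in crypt and 15.7, 6.00 and 9.99 in villus, a difference of 2.66 ± 0.28 (ratio of the means 6.33, adjusted p = 2.51e-06). The lowest crypt library lay far above the highest villus library. Kif11, a spindle motor, had 140, 144 and 207 CPM against 45.9, 16.8 and 22.4 (2.53 ± 0.29, adjusted p = 5.08e-06). Top2a, the topoisomerase that untangles chromosomes, had 399, 500 and 628 CPM against 144, 78.8 and 112 (2.19 ± 0.22, adjusted p = 1.59e-06). In each of these genes villus 1 was the villus library nearest crypt. The exception among mitosis genes was Pttg1, the securin gene, with 62.6, 40.6 and 70.2 CPM against 55.6, 23.9 and 52.6 (0.39 ± 0.37, adjusted p = 0.451), where the groups overlapped. Summed over the list, CPM was 6428 ± 894 in crypt and 1604 ± 337 in villus (SD, n = 3 each), so mitosis transcripts were counted in the villus libraries too.

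Genes of the phase before mitosis followed. All 40 DNA replication genes were higher in crypt (39 stable, median 1.24), as were 24 of 25 DNA repair genes (all 24 stable, median 1.67). Pola1, the catalytic subunit of the polymerase that primes DNA synthesis, had 34.3, 60.8 and 62.4 CPM in crypt and 20.3, 9.32 and 9.13 in villus (2.02 ± 0.28, adjusted p = 4.78e-05). Crypt 1 was the lowest crypt library and villus 1 the highest villus library. Rrm2, a subunit of ribonucleotide reductase, had 59.3, 80.1 and 89.0 CPM against 24.3, 15.9 and 18.3 (1.96 ± 0.18, adjusted p = 7.98e-07). The repair genes Fancd2 (2.06 ± 0.26), of the Fanconi pathway, and Brca1 (1.90 ± 0.26) differed by a similar size. Mki67, the gene of the Ki-67 antigen used to mark cycling cells, had 291, 520 and 484 CPM in crypt and 154, 131 and 100 in villus (1.75 ± 0.25, adjusted p = 5.75e-05). Fitted on the P0 libraries alone, 58 mitosis, 32 replication and 18 repair genes were called. In bulk samples a smaller share of cycling cells and less RNA per cell cannot be told apart.

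Promoters of the mitosis genes are shown because these genes moved together. Promoter sequences of RefSeq (build GRCm38.p6, a later build than that of the counts) were matched by symbol for 49 of the 60 mitosis genes, which have 52 promoters in the table. In the 250 bases before the start, on either strand, CCAAT stood in 69.2% of them, beside 33.8% of all 32851 promoters in the table. The letters TTTGAA, known as the cell cycle homology region of G2 and M phase genes, stood in 42.3% beside 16.0%, and both together in 34.6% beside 5.55%. Among the promoters of the replication genes (32 of 40 matched, 37 promoters), CCAAT stood in 54.1% and TTTGAA in 8.11%, and the E2F-type letters TTTNNCGC in 24.3% beside 4.28% of all promoters and 11.5% of the mitosis promoters. For brush border genes (17 of 22 matched, 21 promoters) the shares were 28.6% with CCAAT, 4.76% with TTTGAA and 0.0% with TTTNNCGC. For lipid absorption genes (16 of 25 matched, 16 promoters) they were 37.5%, 12.5% and 12.5%, the last above the share in the mitosis promoters. A match is a run of letters and was not tested for binding. The 4 mitosis genes with the largest difference that hold both CCAAT and TTTGAA in the 110 bases before their start are printed 5′ to 3′ on the strand of the gene, ending at the base before the start, with both motifs, in either orientation, in capitals. Kif11 lies at chr19:37376272-37376381 on the plus strand, Prc1, a gene of the midzone bundling protein, at chr7:80294366-80294475 on the plus strand, Top2a at chr11:99024190-99024299 on the minus strand and Cdk1, the mitotic kinase gene, at chr10:69352913-69353022 on the minus strand.
Kif11: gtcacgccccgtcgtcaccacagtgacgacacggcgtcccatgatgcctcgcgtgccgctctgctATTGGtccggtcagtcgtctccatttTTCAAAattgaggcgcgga
Prc1: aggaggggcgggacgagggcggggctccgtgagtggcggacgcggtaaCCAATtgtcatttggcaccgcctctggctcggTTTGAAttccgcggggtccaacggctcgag
Top2a: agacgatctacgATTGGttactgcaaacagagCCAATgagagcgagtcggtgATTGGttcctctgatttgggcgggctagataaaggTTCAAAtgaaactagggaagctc
Cdk1: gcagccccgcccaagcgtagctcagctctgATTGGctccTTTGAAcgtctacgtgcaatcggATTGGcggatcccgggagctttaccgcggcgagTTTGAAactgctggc
The differences at P0 were 2.53 for Kif11, 2.31 for Prc1, 2.19 for Top2a and 2.03 for Cdk1. Top2a holds CCAAT letters at 3 places and Cdk1 holds TTTGAA letters at 2.

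Genes that decide entry into the cycle were divided. Of 23 G1 regulators and cell cycle inhibitors, 9 were higher in crypt and 2 in villus (6 and 1 stable, median 0.43), beside 16.5% and 10.3% of all genes. Myc, a growth-promoting transcription factor and Wnt target, had 64.7, 64.4 and 86.5 CPM in crypt and 20.2, 41.6 and 19.2 in villus (1.42 ± 0.32, adjusted p = 0.0031). The pocket protein gene Rbl1 (1.58 ± 0.27) and Cdkn2c (1.51 ± 0.34), an inhibitor of Cdk4 and Cdk6, were also higher in crypt. Cdkn2b, another inhibitor of these kinases, was higher in villus, with 31.5, 23.1 and 21.6 CPM in crypt and 45.2, 69.6 and 57.4 in villus (-1.18 ± 0.19, adjusted p = 0.000211). The groups were separate for Cdkn2b. They overlapped for Cdkn1c, the gene of the inhibitor p57, with 515, 232 and 104 CPM in crypt and 476, 1882 and 691 in villus (-1.84 ± 0.48, adjusted p = 0.00817), a call lost without villus 2. Cdkn1a, the p21 gene, had 61.0, 125 and 77.4 CPM against 94.3, 154 and 97.3 (-0.40 ± 0.25, adjusted p = 0.245). Fitted on the P0 libraries alone, Myc (adjusted p = 0.0559), Rbl1 (0.0619) and Cdkn2c (0.076) were not called, whereas Cdkn2b was.

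Genes that supply growth were higher in crypt as well, ribosomal protein genes excepted. Of 24 genes of nucleotide, serine and one-carbon synthesis, 20 were higher in crypt (16 stable, median 1.06), and of 30 ribosome biogenesis genes 24 (19 stable, median 0.76). Of 26 chromatin and DNA methylation genes 18 were higher (14 stable, median 0.75), and in these lists none was higher in villus. Fitted on the P0 libraries alone, 14 synthesis, 6 ribosome biogenesis and 9 chromatin genes were called in crypt. Of all genes, 16.5% were higher in crypt in the fit of all groups and 3.07% in the fit of P0 alone. Cad, which codes for the enzyme that starts pyrimidine synthesis, had 75.2, 101 and 130 CPM in crypt and 41.0, 23.7 and 26.6 in villus (1.75 ± 0.28, adjusted p = 0.00019). Lbr, the lamin B receptor gene, had 188, 186 and 242 CPM against 80.3, 51.6 and 51.8 (1.74 ± 0.17, adjusted p = 1.49e-06). Utp20, of the small subunit processome, had 41.3, 73.1 and 87.1 CPM against 32.1, 20.9 and 16.6 (1.53 ± 0.25, adjusted p = 0.00023). The groups were separate in all 3, with villus 1 highest among villus libraries. Of 32 ribosomal protein genes, by contrast, 31 were not called, and the list median was -0.17, or 0.02 with scaling by library totals alone. Without villus 1, 6 were higher in villus, and without crypt 1, 3 were higher in crypt. Counts of ribosomal protein genes are uncertain, since processed pseudogenes can share their reads.

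Stem cell genes were among the largest differences at birth. Lgr5 had 55.1, 109 and 53.6 CPM in crypt and 16.4, 10.5 and 6.40 in villus, a difference of 2.70 ± 0.35 (ratio of the means 6.52, adjusted p = 1.75e-05). Olfm4, a secreted glycoprotein gene used as a stem cell marker, had 696, 949 and 758 CPM against 231, 67.0 and 85.2 (2.65 ± 0.41, adjusted p = 0.000127). Smoc2, a matricellular protein gene, had 36.7, 66.2 and 45.4 CPM against 8.67, 12 and 7.79 (2.38 ± 0.26, adjusted p = 2.72e-06). All 3 genes had separate groups and all 3 were called in the fit of the P0 libraries alone. Of 28 stem cell genes tested, 21 were higher in crypt and 2 in villus (13 stable, all in crypt, median 1.2), and 11 were called in the fit of P0 alone. The pair higher in villus was Agr3 (-2.14 ± 0.61, lost without crypt 3 or villus 2) and Pdgfa (-0.64 ± 0.21, lost without crypt 1, crypt 3, villus 2 or villus 3). Bmi1 (0.60 ± 0.30, adjusted p = 0.136) and Tert (-0.45 ± 0.28, adjusted p = 0.248), proposed as markers of slowly cycling cells, were not called.

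In the Wnt pathway, some genes of receptors, of feedback and of targets were higher in crypt, and in the fit of P0 alone 1, 1 and 3 members of the 3 lists were called. Of all genes, 16.5% were higher in crypt in the fit of all groups and 3.07% in the fit of P0 alone. Of 33 Wnt ligand, receptor and R-spondin genes, 24 passed the filter on low counts and 10 were higher in crypt (4 stable, median 0.68), against 4 without crypt 3, villus 2 or villus 3. All 4 R-spondin genes were under the filter. Fzd5, a Wnt receptor of the intestinal epithelium, had 280, 317 and 377 CPM in crypt and 203, 71.0 and 76.5 in villus (1.47 ± 0.27, adjusted p = 0.000691). Lgr4, a relative of Lgr5 with a broader range, had 218, 223 and 285 CPM against 188, 57.7 and 93.4 (1.1 ± 0.28, adjusted p = 0.00788). For both, villus 1 lay close below the crypt libraries, and neither was called in the fit of P0 alone (adjusted p = 0.076 and 0.137). Of 20 tested feedback, inhibitor and destruction complex genes, 6 were higher in crypt (5 stable, median 0.40). Axin2, which is induced by Wnt signals and limits them, had 68.0, 67.8 and 79.5 CPM in crypt and 30.2, 11.8 and 14.6 in villus (1.92 ± 0.28, adjusted p = 7.73e-05). Ctnnb1, the beta-catenin gene, had 1040, 1050 and 1019 CPM against 1217, 786 and 753 (0.17 ± 0.17, adjusted p = 0.47), with overlapping groups. Of 19 tested effector and target genes, 12 were higher in crypt (6 stable, median 0.84, and 6 called without villus 3), among them Cdca7 (2.03 ± 0.23), Igfbp4 (1.79 ± 0.28) and Ascl2, a transcription factor gene of stem cells (1.73 ± 0.32). The sum over Wnt target genes was 2044, 2859 and 2915 CPM in crypt and 1333, 967 and 1066 in villus.

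Of 22 tested Notch pathway genes 4 were higher in crypt, near the 16.5% of all genes, with a list median of 0.38. They were the receptor genes Notch1 and Notch2, Lfng and the protease gene Adam10 (0.73 ± 0.24, lost without crypt 2, crypt 3, villus 2 or villus 3). Notch1 had 66.0, 82.9 and 73.5 CPM in crypt and 35.6, 23.5 and 14.2 in villus (1.6 ± 0.25, adjusted p = 0.000127). Lfng, which codes for a glycosyltransferase that modifies Notch receptors, had 14.0, 17.1 and 12.9 CPM against 5.17, 5.24 and 3.51 (1.66 ± 0.33, adjusted p = 0.00111). Both were separate between groups, as was Notch2 (1.31 ± 0.24, adjusted p = 0.000518), which had adjusted p = 0.0582 in the fit of P0 alone. The Notch ligand genes Dll1 (0.38 ± 0.19, adjusted p = 0.152) and Dll4 (0.04 ± 0.29, adjusted p = 0.927), the target Hes1 (0.25 ± 0.32, adjusted p = 0.594) and Atoh1 (0.31 ± 0.35, adjusted p = 0.54), which drives the secretory fate, were not called. Without villus 1, 7 genes of the list were called in crypt and 1 in villus, and in the fit of P0 alone 2 in crypt.

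Of 23 tested hedgehog and BMP genes 4 were higher in crypt and 2 in villus, near the 16.5% and 10.3% of all genes, with a median of 0.00 and 7 in crypt without villus 1. Without crypt 2 or crypt 3 none was called in villus, and 1 was when any single villus library was left out. Ptch1, receptor and target gene of hedgehog signals, had 22.6, 37.4 and 38.9 CPM in crypt and 17.8, 10.7 and 10.1 in villus (1.36 ± 0.21, adjusted p = 0.00012), and Smo, the signal transducer gene, differed by 1.09 ± 0.26 (adjusted p = 0.0048). The ligand gene Ihh had 71.6, 94.0 and 91.6 CPM against 73.1, 86.8 and 76.9 (0.12 ± 0.27, adjusted p = 0.773), with overlapping groups. Bmp3 was higher in crypt (1.33 ± 0.23) and Bmp7 in villus (-0.82 ± 0.27, lost without crypt 2, crypt 3 or villus 2). Lrig1, which codes for an inhibitor of EGF receptors, had 63.2, 95.7 and 78.6 CPM in crypt and 41.3, 25.8 and 18.9 in villus (1.46 ± 0.22, adjusted p = 0.00011). Egfr itself differed by 0.76 ± 0.17 (adjusted p = 0.00326, 0.11 in the fit of P0 alone), and 4 of 13 tested genes of this family were higher in crypt, 7 without villus 1. Of 17 tested Eph and ephrin genes 4 were higher in crypt and 1 in villus, few more than the 16.5% of all genes in crypt. Ephb4 (1.38 ± 0.21) and Ephb2 (0.85 ± 0.21) code for receptors that position cells along the axis from crypt to villus, and Ephb3 was not called (0.17 ± 0.26, adjusted p = 0.659). Efna1 was higher in villus (-0.82 ± 0.23, lost without crypt 3 or villus 2).

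Of genes of fetal or regenerating epithelium, 5 of 17 tested were higher in crypt and 1 in villus (median 0.45), with 3 in crypt when crypt 2, crypt 3, villus 2 or villus 3 was left out. Of all genes, 16.5% were higher in crypt and 10.3% in villus. Hmga2, a chromatin protein gene active in embryonic tissue, had 50, 94.8 and 79.2 CPM in crypt and 27.1, 27.6 and 22.4 in villus (1.54 ± 0.22, adjusted p = 5.11e-05), and Hmga1 differed by 0.84 ± 0.16. Their groups were separate. Igf2bp3, an RNA-binding protein gene of fetal tissue, had 251, 317 and 261 CPM against 283, 339 and 299 (-0.15 ± 0.14, adjusted p = 0.448), with overlapping groups.

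**Figure D2:**
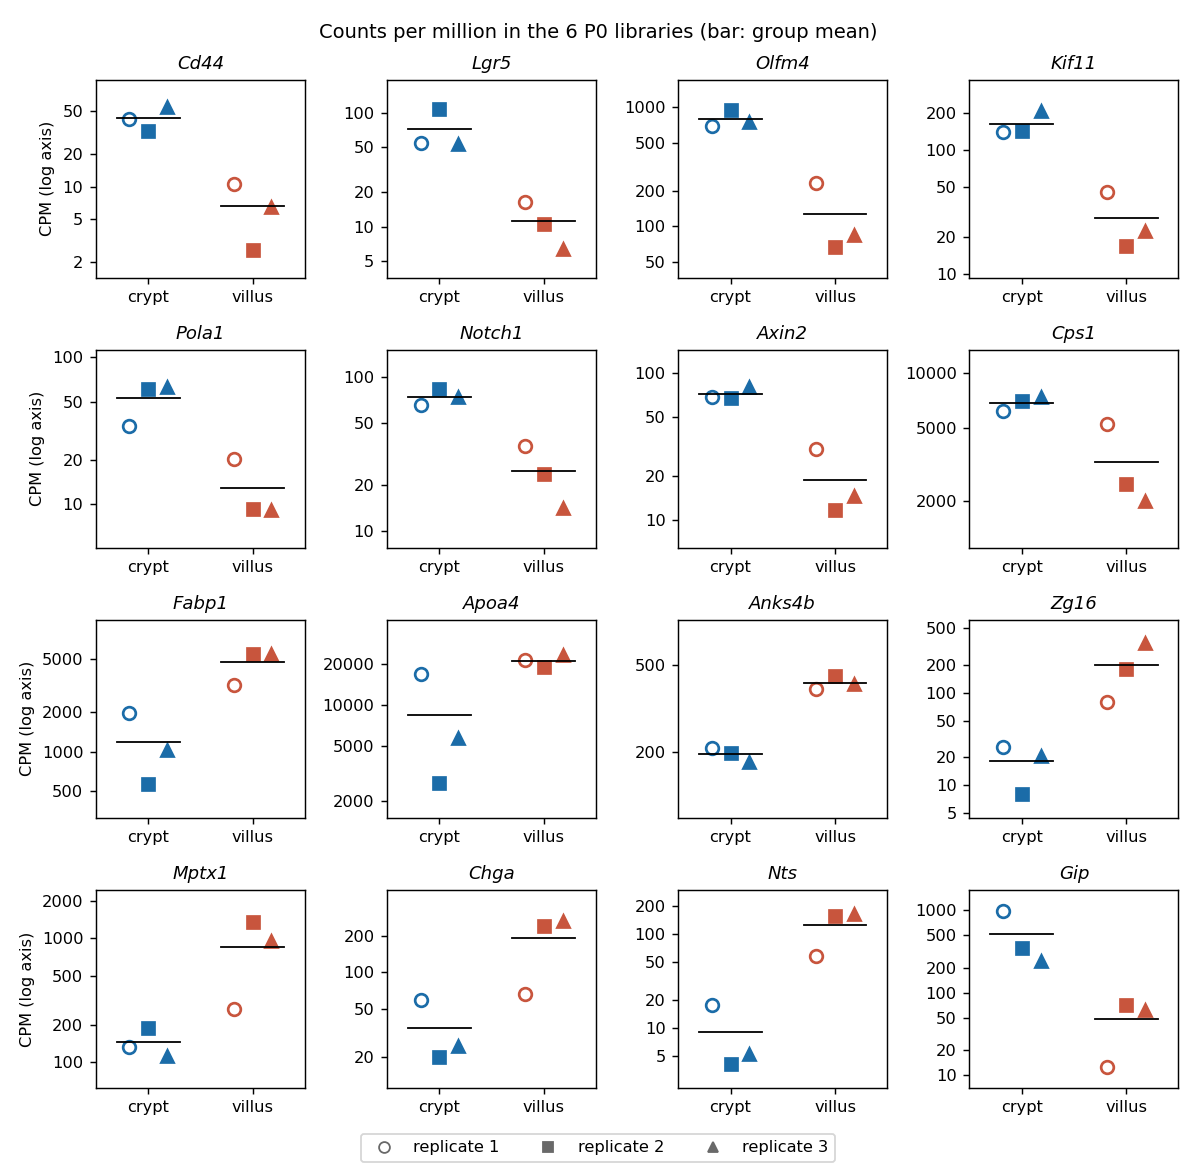
CPM of 16 genes in the 6 P0 libraries (vertical log axis), crypt in blue and villus in red, with open circles for replicate 1, squares for replicate 2, triangles for replicate 3 and a bar at the group mean. Cycling, stem and pathway genes lie higher in crypt, and Zg16, Mptx1, Chga and Nts higher in villus, while Gip, at 240 to 976 CPM in crypt, lies above its 12.7 to 71.2 in villus. Replicate 1 lies nearest the other group on both sides for Olfm4, Kif11, Pola1, Notch1, Cps1, Fabp1, Anks4b, Zg16, Chga and Nts. For Apoa4 it does so on the crypt side only.

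Some enterocyte genes were already higher in the CD44-negative cells at birth. Of 25 lipid absorption genes, 15 were higher in villus and none in crypt (4 stable, median -1.02), and none was called in the fit of P0 alone. Fabp1, a fatty acid binding protein gene, had 1974, 569 and 1023 CPM in crypt and 3219, 5512 and 5455 in villus (-1.99 ± 0.44, adjusted p = 0.00275). Fabp2, its intestinal relative, had 3492, 1021 and 2087 CPM against 5818, 6989 and 6970 (-1.58 ± 0.36, adjusted p = 0.00363). For both, crypt 1 was the highest crypt library and villus 1 the lowest villus library. Apoa4, an apolipoprotein gene of chylomicrons, had 16760, 2719 and 5754 CPM in crypt and 21090, 18990 and 23130 in villus. Its groups did not overlap, yet crypt 1 lay close to villus and the gene was not called (-1.32 ± 0.55, adjusted p = 0.0807). Without both replicate 1 libraries it was (-2.31, adjusted p = 0.00634), as were 18 members of the list higher in villus and 1 in crypt. Calls fell to 4 without crypt 2 and to 8 without crypt 3.

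Brush border structure genes had 8 of 22 members higher in villus (5 stable, median -0.80), 15 without crypt 1 and 13 without both replicate 1 libraries. Anks4b, which codes for a protein of the complex that links microvilli at their tips, had 210, 199 and 182 CPM in crypt and 390, 444 and 409 in villus (-1.07 ± 0.18, adjusted p = 0.000277). Calml4, of the same complex, had 362, 316 and 297 CPM against 514, 684 and 805 (-1.04 ± 0.15, adjusted p = 8.36e-05). For both genes the groups were separate, also in crypt 1, and for Anks4b they were tight as well. Vil1, the villin gene, had 1101, 946 and 1125 CPM against 1516, 1216 and 1175, separate but close, and was not called (-0.30 ± 0.18, adjusted p = 0.22). Digestive enzyme genes had 3 of 19 members called, all higher in villus (1 stable, median -0.44), beside 10.3% of all genes. The count was 10 without crypt 1, 1 without crypt 2 or crypt 3, and 0 in the fit of P0 alone. Sums over the list overlapped, at 9488, 4782 and 7205 CPM in crypt and 11750, 8044 and 7684 in villus. Lct, the lactase gene, had 1595, 524 and 811 CPM in crypt and 2872, 2027 and 1795 in villus (-1.19 ± 0.42, adjusted p = 0.0426), a call lost without any of the P0 libraries other than crypt 1. Alpi, an alkaline phosphatase gene, had 1048, 352 and 418 CPM against 1136, 1222 and 914 (-0.85 ± 0.39, adjusted p = 0.109), with crypt 1 inside the villus range. The adult sucrase gene Sis stood at 3.73 to 15.8 CPM in all 6 libraries.

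Genes of endocytic uptake and lysosomes, by which the suckling gut takes in milk protein, had 6 of 26 members higher in villus (1 stable, median -0.69). This compares with 10.3% of all genes. The count was 17 without crypt 1, 2 without crypt 2 or villus 2, 1 without crypt 3, and 0 in the fit of P0 alone. Fcgrt, the neonatal IgG receptor gene, had 1993, 298 and 567 CPM in crypt and 2278, 2274 and 2533 in villus (-1.31 ± 0.54, adjusted p = 0.0779). Dab2, an adaptor gene of the uptake machinery, had 114, 38 and 37.2 CPM against 208, 163 and 149 (-1.46 ± 0.39, adjusted p = 0.00929, lost without crypt 2 or crypt 3). In both genes crypt 1 stood far above the other crypt libraries. Summed over the list, crypt 1 had 13570 CPM, against 5515 and 5272 in crypt 2 and 3 and 10740 to 13710 in villus.

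Nutrient transporter genes were called in both directions, where 16.5% of all genes were called in crypt and 10.3% in villus. The amino acid transporter genes Slc1a5 (0.81 ± 0.20), Slc7a5 (0.89 ± 0.19) and Slc1a1 (1.70 ± 0.29) were higher in crypt, all 3 stable, and of the 30 members they were the only ones. Slc7a5, which brings large neutral amino acids into growing cells, had 48.3, 56.5 and 51.9 CPM in crypt and 30.6, 28.1 and 25.7 in villus. Higher in villus were 5 (2 stable, list median -0.63), against 13 without crypt 1 and 2 without crypt 2, crypt 3 or villus 1, while crypt calls were 6 without villus 1. The 5 include Slc7a7 (-1.14 ± 0.29), a basolateral exporter of basic amino acids, and Slc5a1, the glucose transporter gene SGLT1 (-0.65 ± 0.20, lost without crypt 2, crypt 3 or villus 1). Of 15 genes of arginine, proline and urea metabolism 3 were higher in crypt (2 stable), near the 16.5% of all genes, and 7 without villus 1. Cps1, the first enzyme gene of the urea cycle, had 6167, 7029 and 7380 CPM in crypt and 5270, 2471 and 2018 in villus (1.08 ± 0.26, adjusted p = 0.00518, 0.138 in the fit of P0 alone). Villus 1 was more than 2-fold above the other villus libraries. Of 9 genes of fructose metabolism and gluconeogenesis, 7 were higher in villus and 1 in crypt (median -1.07), with 2 in villus without crypt 2 or crypt 3 and 3 without villus 1 or villus 3. Pck1, the cytosolic enzyme gene of gluconeogenesis, had 756, 197 and 458 CPM in crypt and 2309, 737 and 1212 in villus (-1.59 ± 0.47, adjusted p = 0.0171, lost without crypt 2, crypt 3 or villus 1). Pck2, its mitochondrial relative, went the other way (0.82 ± 0.21, adjusted p = 0.00815). Pck1 overlapped between groups and Pck2 did not. Fatty acid oxidation and ketone synthesis had 4 of 20 genes higher in villus, beside 10.3% of all genes, 1 without crypt 2 and 2 without villus 3.

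Enterocyte transcription factor genes had 3 stable calls among 28, all in villus, where 3.08% of all genes were stable. Hnf4a, a main regulator of the absorptive programme, had 723, 860 and 929 CPM in crypt and 878, 702 and 801 in villus (0.08 ± 0.15, adjusted p = 0.73), and Cdx2, which sets intestinal identity, 273, 330 and 326 against 284, 347 and 411 (-0.17 ± 0.18, adjusted p = 0.519). Both overlapped between groups. Of the 28 genes 7 were higher in villus and 4 in crypt (median -0.10, and 0.09 with scaling by library totals alone). The villus count was 4 without crypt 2, crypt 3 or villus 2, and the crypt count 2 without crypt 1 or crypt 3 and 0 without crypt 2, villus 2 or villus 3. Maf, a bZIP factor gene of villus enterocytes, had 218, 201 and 144 CPM against 382, 525 and 359 (-1.17 ± 0.24, adjusted p = 0.00145). Creb3l3, a regulator gene of lipid metabolism (-1.19 ± 0.29), was also stable, with adjusted p = 0.0896 in the fit of P0 alone. Prdm1, which codes for a repressor that delays adult enterocyte genes, had 87.9, 123 and 140 CPM against 127, 89.1 and 78.0 (0.25 ± 0.19, adjusted p = 0.335).

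Most mitochondrially encoded genes with counts were called higher in villus with all libraries, and few nuclear genes of oxidative phosphorylation were called. Of 13 mitochondrial protein genes 7 had counts, the others being listed at 0 in all P0 libraries. Of the 7, 6 were higher in villus (4 stable, median -1.19), and 0 in the fit of P0 alone. Sums over the list, on totals without TMM, overlapped between groups, crypt 2 (50000 CPM) lying above villus 1 (46630 CPM). This order was not examined with TMM-adjusted totals and may not hold there. mt-Cytb, of complex III, had 7211, 9667 and 6461 CPM in crypt and 11110, 20450 and 26930 in villus (-1.32 ± 0.28, adjusted p = 0.00171, 0.0799 in the fit of P0 alone). For mt-Cytb the crypt libraries were separate from villus, of which villus 1 was nearest. Of 31 nuclear oxidative phosphorylation genes 5 were higher in villus (1 stable, median -0.19), beside 10.3% of all genes. With scaling by library totals alone 4 were higher in crypt and 1 in villus. The villus count was 9 without villus 1, 2 without crypt 2 and 1 without crypt 3, villus 2 or villus 3. Atp5b, of the ATP synthase, had 2813, 2198 and 2472 CPM against 2315, 1966 and 2168 (0.21 ± 0.14, adjusted p = 0.277). The part of RNA quality or of the sort in the mitochondrial share was not tested.

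Most genes of goblet cells were higher in villus. Of 24 tested, 15 were higher in villus and 1 in crypt (11 and 0 stable, median -1.61). Zg16, a lectin gene of goblet cell granules, had 25.8, 8.03 and 20.7 CPM in crypt and 80.4, 181 and 342 in villus (-3.47 ± 0.62, ratio of villus to crypt means 11.1, adjusted p = 0.000567). Tff3, the trefoil factor gene, had 122, 208 and 129 CPM against 341, 1347 and 1387 (-2.74 ± 0.41, adjusted p = 8.88e-05). Muc2, the main gel-forming mucin gene, had 31.2, 42.9 and 32.4 CPM against 109, 176 and 175 (-2.11 ± 0.28, adjusted p = 2.49e-05). The groups were separate in each, villus 1 being the lowest villus library. Outside the goblet list, Reg4, a lectin gene of secretory cells, had 151, 83.1 and 119 CPM against 262, 698 and 980 (-2.46 ± 0.46, adjusted p = 0.000785). Guca2b, also outside that list, codes for uroguanylin and had 168, 80.4 and 52.7 CPM against 248, 665 and 508 (-2.24 ± 0.45, adjusted p = 0.00129). Without both replicate 1 libraries 16 goblet genes were higher in villus, and in the fit of P0 alone 7.

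Genes named for Paneth cells, which lie at the crypt base in the adult, were higher in the villus population at birth. Of 19 members 14 were tested and 9 were higher in villus, none in crypt (4 stable, median -1.96). Mptx1, a pentraxin gene, had 134, 188 and 112 CPM in crypt and 269, 1362 and 943 in villus (-2.57 ± 0.50, adjusted p = 0.00101). Defa24, an alpha-defensin gene, had 58.7, 78.4 and 87.0 CPM against 143, 439 and 444 (-2.19 ± 0.34, adjusted p = 0.000116). Both were separate between groups, with villus 2 and 3 far above villus 1. Defa17 (-2.52 ± 0.47) differed alike, with adjusted p = 0.0527 in the fit of P0 alone. Lyz1, the Paneth cell lysozyme gene, stood at 2.93, 5.36 and 8.31 CPM in crypt and 7.41, 12 and 12.8 in villus and was not called (-0.95 ± 0.42, adjusted p = 0.101). Alpha-defensin genes are near-identical copies that can share reads, so the value of a single one is uncertain. The number of Paneth genes called was 5 without crypt 3 or without villus 2, and 4 by limma-voom.

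Hormone genes did not move as a block. Gip, the gene of K cells, had the largest stable difference toward crypt where mean log2 CPM was 3 or more, with 976, 344 and 240 CPM in crypt and 12.7, 71.2 and 61.5 in villus (3.43 ± 0.64, ratio of the means 10.8, adjusted p = 0.00083). Without both replicate 1 libraries the difference was 2.14 (adjusted p = 0.00474), since crypt 1 was the highest and villus 1 the lowest of the 6. Nts, the neurotensin gene, had the largest stable difference toward villus at these levels, with 17.8, 4.15 and 5.33 CPM in crypt and 58.0, 154 and 164 in villus (-3.79 ± 0.64, adjusted p = 0.000358). Tph1, which codes for the serotonin enzyme of enterochromaffin cells, had 6.17, 3.33 and 3.21 CPM against 9.29, 31.0 and 29.2 (-2.45 ± 0.39, adjusted p = 0.000154). Gcg, which codes for proglucagon, had 14.2, 7.03 and 9.93 CPM against 34.0, 64.6 and 52.5 (-2.27 ± 0.38, adjusted p = 0.000297). In Nts, Tph1 and Gcg the groups were separate. Of 13 hormone genes 8 were higher in villus and 1, Gip, in crypt (5 and 1 stable, median -2.03), with 5 in villus when crypt 2, crypt 3, villus 2 or villus 3 was left out. Sst, the somatostatin gene, had 89.8, 25.8 and 22.4 CPM in crypt and 8.21, 34.7 and 68.6 in villus (0.31 ± 0.58, adjusted p = 0.726), and Cck 94.9, 24.3 and 22.2 against 36.7, 132 and 216 (-1.44 ± 0.55, adjusted p = 0.0577). In both, crypt 1 was the highest crypt library and villus 1 the lowest villus library.

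Enteroendocrine transcription factor and granule genes had few calls with all libraries and many without replicate 1. Of 24 tested, 7 were higher in villus and 1 in crypt (median -0.52), and 19 and 0 without both replicate 1 libraries. The shares of all genes were 10.3% and 16.5%, and 15.4% and 24.6% without both replicate 1 libraries. The villus count of the list was 12 without villus 1, 4 without crypt 3 or villus 3, and 1 in the fit of P0 alone. Chga, the chromogranin A gene, had 59.5, 20.1 and 24.8 CPM in crypt and 66.9, 239 and 265 in villus (-2.45 ± 0.46, adjusted p = 0.000879). Crypt 1 lay close below villus 1 for Chga, which had adjusted p = 0.0578 in the fit of P0 alone. Chgb, its relative, had 574, 149 and 196 CPM against 187, 599 and 615 and was not called (-0.61 ± 0.41, adjusted p = 0.281). For Chgb crypt 1 lay close below villus 2 and 3, and villus 1 between crypt 2 and 3. Neurog3, the factor gene that starts the endocrine fate, had 3.90, 9.61 and 6.80 CPM against 4.80, 10.3 and 12.3 (-0.43 ± 0.40, adjusted p = 0.444), and the later factor gene Neurod1 5.38, 3.58 and 3.06 against 5.32, 12.7 and 22.4 (-1.74 ± 0.41, adjusted p = 0.00445). Neurod1 overlapped between groups only through crypt 1 and villus 1. Tuft cell genes were low, with a sum of 6.676, 1.996 and 6.494 CPM in crypt and 8.823, 2.864 and 11.97 in villus. These sums overlapped. Of 15 members 7 were tested and 2 were higher in crypt (median 0.43). Pou2f3, the factor gene of tuft cells, had 0.151, 0.333 and 0.265 CPM in crypt and at most 0.0426 in villus. Ptgs1 had 24, 2 and 15 counts in crypt and 0 in each villus library. Ptgs1 was thus at least 12.5-fold higher against a floor of 3 counts over the villus group. Ltc4s leaned the other way without a call (-1.29 ± 0.62, adjusted p = 0.127). It had 3.509, 0.697 and 4.477 CPM in crypt and 8.304, 1.532 and 11.46 in villus. Avil, also uncalled (-1.15 ± 0.62, adjusted p = 0.175), was called higher in villus without both replicate 1 libraries (-2.08, adjusted p = 0.0173).

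Adhesion genes were called in both directions, in actomyosin genes at about the 16.5% and 10.3% of all genes. Of 31 tested integrin, laminin and basement membrane genes 8 were higher in crypt and 2 in villus (3 and 1 stable, median 0.39), and of 32 actomyosin genes 5 and 3 (2 and 1 stable, median 0.03). The crypt counts were 5 and 3 without crypt 3, and 4 and 3 without villus 2 or villus 3, and 1 actomyosin gene was called in villus without crypt 3. Itga6, the integrin alpha 6 gene of hemidesmosomes, had 169, 179 and 234 CPM in crypt and 135, 44.4 and 52.2 in villus (1.33 ± 0.28, adjusted p = 0.0017), while its partner gene Itgb4 had 118, 98.0 and 96.6 against 125, 158 and 102 (-0.30 ± 0.26, adjusted p = 0.407). Dst, a hemidesmosome linker gene, had 44.1, 29.0 and 28.7 CPM against 74.5, 68.2 and 49.4 (-0.92 ± 0.23, adjusted p = 0.00582). Itga6 and Dst were separate between groups in opposite directions, and Itgb4 overlapped. Myh9, the nonmuscle myosin IIA gene, was higher in crypt with 530, 714 and 716 CPM against 510, 298 and 317 (0.80 ± 0.20, adjusted p = 0.00646), and Mylk, the myosin light chain kinase gene, higher in villus with 168, 159 and 183 against 352, 314 and 320 (-0.95 ± 0.19, adjusted p = 0.00129). In the fit of P0 alone no gene of the integrin list was called, and Mylk was called and Itga6 (adjusted p = 0.0994), Dst (0.0721) and Myh9 (0.12) were not. Of 28 cell junction genes 6 were higher in crypt and 1 in villus, none stable, with 1 called in crypt without crypt 3 and none without villus 2 or villus 3. Cdh1, the E-cadherin gene, had 1059, 962 and 1083 CPM against 910, 498 and 500 (0.70 ± 0.19, adjusted p = 0.0104, lost without villus 2 or villus 3).

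Of 22 MHC class I and interferon genes 3 were higher in villus, beside 10.3% of all genes (1 stable, median -0.65), 9 without crypt 1, 1 without crypt 2 and 9 without both replicate 1 libraries. Ifit1, an interferon-induced gene, had 76.8, 33.6 and 34.7 CPM in crypt and 173, 184 and 125 in villus (-1.73 ± 0.41, adjusted p = 0.00416), with separate groups. MHC class II genes were low, with a sum of 13.9, 5.75 and 6.53 CPM in crypt and 4.44, 4.38 and 5.22 in villus. Of 7 genes 3 were higher in crypt, beside 16.5% of all genes, with 1 without crypt 1 and 1 without both replicate 1 libraries.

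Mesenchyme and immune markers were called in crypt and some neural markers in villus, most at low levels. Of all genes, 16.5% were called in crypt and 10.3% in villus. Of 15 mesenchyme and smooth muscle markers tested, 10 were higher in crypt (median 3.08, or 2.93 with a member at 0 in villus set to its bound), against 1 in crypt without both replicate 1 libraries, 3 without crypt 1 or villus 2, 6 without crypt 3 or villus 1, and 3 by limma-voom. The sum over the list was 86.2, 14.7 and 32.6 CPM in crypt and 9.25, 19.9 and 18.5 in villus, so that crypt 2 lay inside the villus range. Col3a1, a fibroblast collagen gene, had 14.6, 1.33 and 6.16 CPM in crypt and 0.338, 0.213 and 0.326 in villus (4.62 ± 1.04, adjusted p = 0.00329). Of 12 immune markers tested 7 were higher in crypt (median 2.02), 3 with the filter of 1 CPM and 2 in the fit of P0 alone. Ptprc, the CD45 gene, stood at 0.665, 0.212 and 0.707 CPM in crypt and at 0.0308, 0 and 0 in villus, and Adgre1, a macrophage gene, had 39, 2 and 26 counts in crypt and 0 in each villus library, at least 20.4-fold higher against the floor of 3 counts over the group. Csf1r, a myeloid receptor gene in the same list, went the other way, with 82.6, 11.3 and 21.5 CPM in crypt and 84.2, 106 and 112 in villus (-1.39 ± 0.59, adjusted p = 0.0865), at levels above all other immune markers. Of 6 enteric neuron and glia markers tested, 3 were higher in villus and none in crypt, and none was called without crypt 2, crypt 3, villus 2 or villus 3. Uchl1, a neuronal ubiquitin hydrolase gene, had 0.242, 0 and 0.0589 CPM in crypt and 0.154, 1.36 and 1.02 in villus (-3.00 ± 0.94, adjusted p = 0.0283). Of 5 endothelial markers 1 was called, Eng, higher in villus (-1.43 ± 0.52, lost without the same libraries). Neural markers summed to 47.7, 21.8 and 28.1 CPM in crypt and 54.2, 41.0 and 40.2 in villus, with overlapping groups. Epithelial markers summed to 7633 to 10610 CPM in all 6 libraries. The part of other cells in the differences was not tested.

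**Figure D3:**
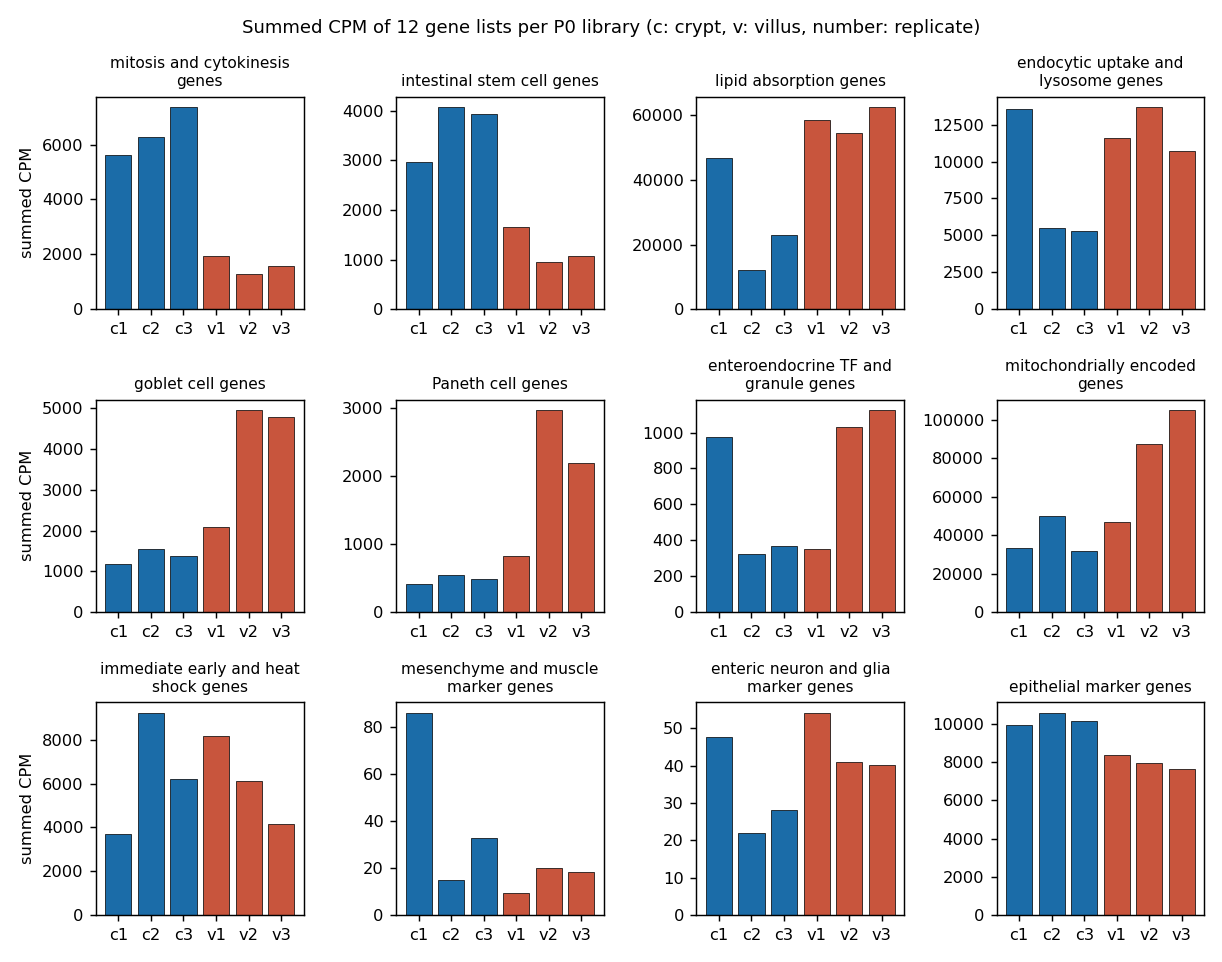
Summed CPM of 12 gene lists in each P0 library, on library totals without TMM (bars, axes starting at 0), blue for crypt (c1 to c3) and red for villus (v1 to v3). Mitosis and stem cell genes are higher in each crypt library than in each villus library, goblet, Paneth and lipid absorption genes higher in each villus library, and crypt 1 has the highest mesenchyme sum (86.2 CPM) and stands with the villus libraries for endocytic genes and, at 976 CPM, close below villus 2 and 3 for enteroendocrine factor and granule genes.

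The replicate 1 libraries of both populations lay between the others. On principal component 1 of log2 CPM, which held 61.6% of the variance over 11264 genes, crypt 1, 2 and 3 stood at -16.1, -39.7 and -52.5 and villus 1, 2 and 3 at 3.01, 58.2 and 47.1. The root mean square log2 difference between crypt 1 and villus 1 (0.567) lay between those of crypt 1 with crypt 3 (0.534) and crypt 2 (0.591), and below those of villus 1 with villus 2 (0.801) and villus 3 (0.67). Among the 2048 genes called higher in crypt whose mean log2 CPM was 3 or more, crypt 1 was the crypt library nearest villus in 79.8% and villus 1 the villus library nearest crypt in 78.2%. Among the 1109 called higher in villus these shares were 65.1% and 62.6%. Without both libraries 4068 genes (24.6%) were higher in crypt and 2549 (15.4%) in villus. Of the 4427 calls, 4080 (92.2%) were kept, 347 were lost and 1 changed sign, and 2537 further genes were called. In 3768 of the 4080 the difference was larger without replicate 1, and the median size of the 4427 differences was 1.22 instead of 0.94.

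The 347 calls lost without replicate 1 were 205 in crypt and 142 in villus. The change of sign was in Scg2, a granule protein gene, which had 44.3, 7.55 and 7.13 CPM in crypt and 3.84, 8.17 and 7.75 in villus. It was called in crypt with all libraries (1.58 ± 0.55, adjusted p = 0.0399) and not without replicate 1 (-0.12, adjusted p = 0.848). The chemokine gene Ccl20 (1.11 ± 0.33, then 0.53 with adjusted p = 0.238) and Apoe, an apolipoprotein gene (1.16 ± 0.39, then 0.52 with adjusted p = 0.338), were other crypt calls lost. Fgf15, the hormone gene by which the ileum restrains bile acid synthesis, had 25.4, 18.5 and 21.3 CPM in crypt and 153, 57.8 and 32.2 in villus. Villus 1 was highest, and the call (-1.90 ± 0.47, adjusted p = 0.00591) was lost without it and without both replicate 1 libraries (-1.18, adjusted p = 0.0537). Hpgds, a prostaglandin synthase gene, was lost likewise (-1.93 ± 0.61, then -1.91 with adjusted p = 0.0598), with a difference of nearly the same size.

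**Figure D4:**
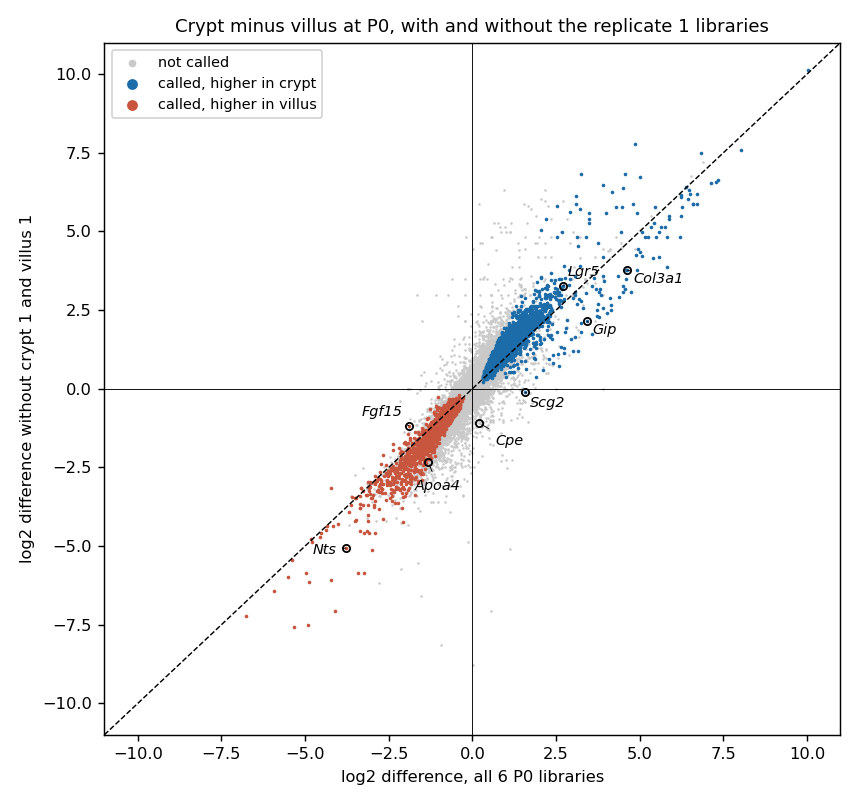
Log2 difference of each of 16535 genes at P0 with all 6 libraries (horizontal axis) and without crypt 1 and villus 1 (vertical axis), blue and red for genes called higher in crypt or villus with all libraries, grey for those not called, and a dashed line of equal values. Most called genes lie farther from 0 on the vertical axis, as in 3768 of 4080 kept calls, whereas Gip, Col3a1 and Fgf15 lie nearer to 0 and Scg2 crosses to the other side.

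The difference between the populations at birth was compared with that at P10, when crypts are forming. No gene passed the test of the change itself by edgeR (0 of 16535, 0.0%), with 1157 at an unadjusted p under 0.05, nor by DESeq2 (0 called, 1352 unadjusted) or limma-voom (0 called, 1231 unadjusted). This count rested on a P0 library: without villus 1 it was 1085, of which 849 were more toward crypt at P0, and without both P0 replicate 1 libraries 1366 (1108, 6.7%, toward crypt and 258, 1.56%, toward villus). In the latter fit 18 mitosis genes were more toward crypt at P0, and 11 enteroendocrine factor and granule genes, 6 hormone genes and 4 Paneth genes more toward villus. With all libraries, list medians at P0 and P10 were 1.98 and 1.49 for mitosis, 1.2 and 1.11 for stem cell genes, -1.02 and -2.19 for lipid absorption, -0.44 and -1.88 for digestive enzymes, -1.61 and -0.79 for goblet and -1.96 and -0.35 for Paneth genes, differences that no test of single genes called.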

How the data were processed

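Poly(A) RNA of sorted cells was sequenced with a stranded kit, per the labels' protocols. The deposited values are raw read counts per gene symbol, for which the submitters' processing notes name Trim Galore, STAR, HTSeq and mouse build mm9. Versions, the strand setting and the handling of reads with several alignments are not given in the sources used here, so overlapping genes and near-identical copies are uncertain. The 47593 gene symbols of a library entered, and its 5 lines of unassigned reads did not. At P0, 6.80% to 13.5% of listed reads fell in no gene.

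Genes were kept by filterByExpr (minimum count 10, minimum total 15), which left 16535, and fitted with edgeR 4.0.16 in R 4.3.3 (TMM, robust quasi-likelihood, a coefficient per group, all 23 libraries, 15 residual degrees of freedom, Benjamini-Hochberg, threshold 0.05). The P0 contrast was crypt minus villus, and its difference from the same contrast at P10 was tested in that fit. Log2 CPM used a prior count of 2. The scripts were tested on simulated data. Alternatives used DESeq2 1.42.0, limma 3.58.1, other scalings and filters, thinned counts, a fit of only the groups compared, a replicate block, and libraries left out.

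The 52 gene lists, with 1154 entries of which 4 had no row, and the members were chosen with earlier results of these data known, so lists are described by counts and medians without a test. Genes named in the text were the 15 largest stable differences per direction whose mean log2 CPM was 3 or more, the 5 largest per direction lost without both replicate 1 libraries, up to 4 called members per direction and 2 uncalled ones of each list, and 40 genes fixed by name, of which part are printed. Prc1 and Cdk1 were named by the rule for promoters. No molecular identifiers are named in the labels, so floors cover counting error only. A few list members are not reported here.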

Additional observations from a re-analysis of the deposited data

How the results depend on the processing

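The counts at P0 (2731 genes higher in crypt, 1696 in villus) stayed within 1.5 times under DESeq2 size factors, the filter of 1 CPM, DESeq2, limma-voom, thinning and removal of mitochondrial genes. They moved to 507 and 201 when only the P0 libraries were fitted, in villus to 965 with scaling by library totals, 1106 with no filter, 2566 with the replicate block and 2549 without both P0 replicate 1 libraries. Leaving out 1 P0 library gave 1713 to 3936 in crypt and 722 to 2443 in villus, lowest without crypt 3 and highest without villus 1. Deviations from the group means correlated at -0.207, 0.464 and 0.041 between P0 libraries of equal replicate number, and at 0.545 between crypt 3 and villus 1. These values cannot settle whether equal numbers share a source, as replicate 1 of each population lay toward the other population. With the replicate block within age 5942 genes were called. For the change of the difference from P0 to P10, 0 genes became 2 with no filter and 157 toward crypt and 9 toward villus with the block, 1108 and 258 without both P0 replicate 1 libraries, and 0 to 849 and 0 to 236 when a library was left out, with 1 without P10 villus 1. Of 331 genes the naming rule took, 122 had stable calls. Of the 10 settings not used to define stable, the fit of only the P0 libraries kept 76. In the other 9 no stable call was lost where the gene was tested, which was so in all 9 for 112 genes, as 7 fell under the filter of 1 CPM and 3 were mitochondrial genes left out. Without both replicate 1 libraries Scg2 went from 1.58 to -0.12 and Cpe, a hormone processing enzyme gene that was not called (0.19), to -1.09 (adjusted p = 0.0216). The cause was not tested.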

Other observations

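Immediate early and heat shock genes varied between libraries of both populations. Their sum was 3713, 9248 and 6196 CPM in crypt 1, 2 and 3 and 8172, 6121 and 4174 in villus 1, 2 and 3. Of 19 tested genes 2 were called, Gadd45a (-0.95 ± 0.27) and Jund (-0.55 ± 0.18), both higher in villus, near the 10.3% of all genes. Egr1, an immediate early gene, had 366, 1300 and 789 CPM in crypt and 1098, 682 and 409 in villus. The lists of cholesterol synthesis (2 of 20 higher in crypt) and glycolysis (1 of 17 higher in crypt) also held few calls with all libraries. Cholesterol synthesis had 9 in crypt without villus 2 and 0 without crypt 2 or villus 3, and glycolysis had 4 in villus without villus 1, 2 without crypt 2 and 0 with all libraries. Pdk1, which codes for a kinase that restrains pyruvate use in mitochondria, differed by 0.94 ± 0.24 (adjusted p = 0.00831), a call lost without crypt 2.

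Xist, the RNA of the inactive X chromosome, had 136, 483 and 296 CPM in crypt and 134, 284 and 34.8 in villus, and the Y-linked gene Eif2s3y 40.0, 16.6 and 44.0 in crypt and 72.1, 14.8 and 81.2 in villus. Both genes had counts in every P0 library, and neither was called (adjusted p = 0.269 and 0.353).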
